A study of Mus musculus with 7 samples.

Results

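This account describes 43 mouse genes of respiratory complex I, out of 18193 genes with a single symbol on the array, in plantaris muscle of Pax7-DTA mice. They are all genes whose single annotated symbol begins with Ndufa, Ndufb, Ndufc, Ndufs or Ndufv and a digit (35 genes, called subunits here) or with Ndufaf (8 genes, the assembly factors). Each was read from its brightest probe set, the one with the highest mean level over the 7 arrays. Another 7 symbols of the family lie on probe sets that carry several symbols, among them Ndufa11 and Ndufs6, and were not analysed here.

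RNA from plantaris, a plantar flexor of the lower leg, was measured on Affymetrix Mouse 430 2.0 arrays. The groups were tamoxifen with overload (3 arrays, of which 2 male and 1 female), vehicle with overload (2 arrays, 1 female and 1 male), tamoxifen with sham surgery (1 male array) and vehicle with sham surgery (1 male array). Overload arrays were taken 1 week after synergist ablation, in which the muscles that share the work of plantaris are removed, and no interval is given for sham. All mice were 4 months old and of the same Pax7-DTA genotype, bred from Pax7-CreER and Rosa26-DTA parents, so the vehicle mice carry both alleles too. In these mice Cre recombinase is driven from Pax7, a gene of satellite cells, the stem cells of muscle, and tamoxifen lets it switch on diphtheria toxin A there. The labels accordingly describe the vehicle muscles as having satellite cells and the tamoxifen muscles as lacking them. The design text speaks of pooled right and left muscles from 11 animals while the array titles read as single mice. The number of animals behind an array is therefore uncertain. The p-values measure the spread between arrays, which only the overload groups show, as each sham group has 1 array.

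Complex I is the entry point of the respiratory chain in the inner mitochondrial membrane: it takes electrons from NADH, passes them through a flavin and a chain of iron-sulphur clusters to ubiquinone, and pumps protons. A set of core subunits, conserved from bacteria, does the catalysis. Accessory subunits surround it, and assembly factors build the complex without staying in it. Some core subunits are made inside the mitochondrion. Those are outside the symbol rule and are not described.

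Levels are log2 of the deposited probe set intensity plus 1. As deposited, each array had the same trimmed mean intensity of 500, so this mean cannot show whether the arrays were comparable in scale. The median intensity over all probe sets ran from 114.5 to 127.7 on tamoxifen overload arrays and from 105.8 to 108.6 on vehicle overload arrays, against 99.4 on tamoxifen sham and 88.2 on vehicle sham. Background was set at a level of 5.77, and 42 of the 43 genes were above it on every array. The exception was Ndufb4. Pax7 itself was at 5.88, 3.46 and 6.92 on tamoxifen overload arrays and at 8.10 and 8.45 on vehicle overload arrays, against 5.40 on tamoxifen sham and 6.55 on vehicle sham. Its tamoxifen minus vehicle difference in overload, -2.67 ± 0.81 (SE), was not called (adjusted p = 0.399, limma). All 30 adult muscle fibre markers had a mean level above background.

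Upstream sequence was available for 38 of the 43 genes, as the 250 bases before the annotated start (RefSeq, GRCm38.p6). It is shown here for the core subunit and the assembly factor with the largest falls among the genes that have an entry, Ndufs7 (chr10:80249199-80249448, plus strand) and Ndufaf5 (chr2:140170396-140170645, plus strand). Ndufa8 (chr2:36049339-36049588, minus strand) and Ndufaf4 (chr4:24897833-24898082, plus strand) are shown beside them because they hold letters searched for. Capitals mark GCATGCGC or its reverse complement, the core of the site of NRF1, a factor known to drive nuclear genes of the respiratory chain.
Ndufs7: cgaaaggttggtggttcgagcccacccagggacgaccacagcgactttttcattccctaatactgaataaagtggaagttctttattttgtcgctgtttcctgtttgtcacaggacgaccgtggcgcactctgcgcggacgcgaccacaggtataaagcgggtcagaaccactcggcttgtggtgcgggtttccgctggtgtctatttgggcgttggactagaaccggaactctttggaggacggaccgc
Ndufaf5: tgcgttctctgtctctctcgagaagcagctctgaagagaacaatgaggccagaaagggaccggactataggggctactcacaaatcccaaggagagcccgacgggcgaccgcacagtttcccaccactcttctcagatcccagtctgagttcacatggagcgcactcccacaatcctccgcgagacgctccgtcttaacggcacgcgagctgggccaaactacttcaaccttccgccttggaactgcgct
Ndufa8: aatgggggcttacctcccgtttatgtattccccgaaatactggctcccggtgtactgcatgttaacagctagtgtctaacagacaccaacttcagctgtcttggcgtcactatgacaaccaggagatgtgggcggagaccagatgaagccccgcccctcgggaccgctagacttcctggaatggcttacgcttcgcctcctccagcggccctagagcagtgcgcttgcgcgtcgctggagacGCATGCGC
Ndufaf4: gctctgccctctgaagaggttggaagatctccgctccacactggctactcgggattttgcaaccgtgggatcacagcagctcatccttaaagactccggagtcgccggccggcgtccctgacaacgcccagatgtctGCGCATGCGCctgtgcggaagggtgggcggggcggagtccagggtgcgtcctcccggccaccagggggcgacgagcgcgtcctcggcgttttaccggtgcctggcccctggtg
Ndufa8 holds the letters next to its start, and Ndufaf4 holds them in 2 overlapping copies, once on each strand. Counting Ndufa6 as well, 3 of the 38 genes hold GCATGCGC upstream on either strand (7.89%), against 2.56% of all 27025 genes in the table. The core of the GABPA (NRF2) site, CCGGAAG, is upstream of 5 genes (13.2%, against 7.83% of all genes), namely Ndufaf1, Ndufaf8, Ndufb6, Ndufb7 and Ndufs3. TNAAGGTCA, the core of the ERR alpha site, is upstream of 1 (2.63%, against 1.3%), Ndufb4, and the YY1 letters AAGATGGC of 0 (against 1.83%). In all, 9 genes hold at least 1 of these (23.7%, against 12.7% of all genes). The windows of Ndufs7 and Ndufaf5 hold none of these letters.

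The first question of the design is what overload did to the muscle. Complex I genes were lower in overloaded than in sham-operated plantaris: 26 of the 43 fell at an adjusted p under 0.05 and none rose, in a limma fit over all genes with the treatments averaged and sex as a term. Over all genes 8.16% were called lower and 14.7% higher. The median difference, overload minus sham, was -0.55 on the log2 scale over the 43 genes, against 0.07 over all genes, and 41 of the 43 differences were negative. Subunits had a median of -0.59 with 23 of 35 called, and assembly factors one of -0.34 with 3 of 8 called. With arrays centred on fibre markers the assembly factor median turned to 0.03. After quantile normalization the medians were -0.35 for subunits and -0.32 for assembly factors. The gap between the classes thus depended on scaling and was not tested. All 5 overload arrays were below both sham arrays for 38 of the 43 genes, a separation that 18.3% of all genes showed. The 5 exceptions were Ndufa4l2, Ndufb7, Ndufaf2, Ndufaf7 and Ndufaf8.

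The fit has 2 residual degrees of freedom, which come from the overload arrays alone. Variation between sham arrays of a group enters no p-value of this fit, also with the treatments averaged. The calls depend on how the spread between arrays is estimated. With no intensity trend in limma's variance model, 0 of the 43 genes and 0 of all genes were called, and 26 of the 43 were under an unadjusted p of 0.05 (28.8% of all genes), against 35 of the 43 with the trend (34.6% of all genes). Without 1 array, between 2 and 30 of the 43 were called. The 2 were called without the vehicle overload male array, where 2.73% of all genes were called lower, and the 30 without tamoxifen overload array 1, where 9.83% were. The count was 5 without the vehicle sham array (3.57% of all genes called lower) and 12 without the tamoxifen sham array (5.03%). It was 7 without either female array, with 6.38% of all genes called lower without the vehicle one and 6.51% without the tamoxifen one. Both female arrays are overload arrays.

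**Figure D1:**
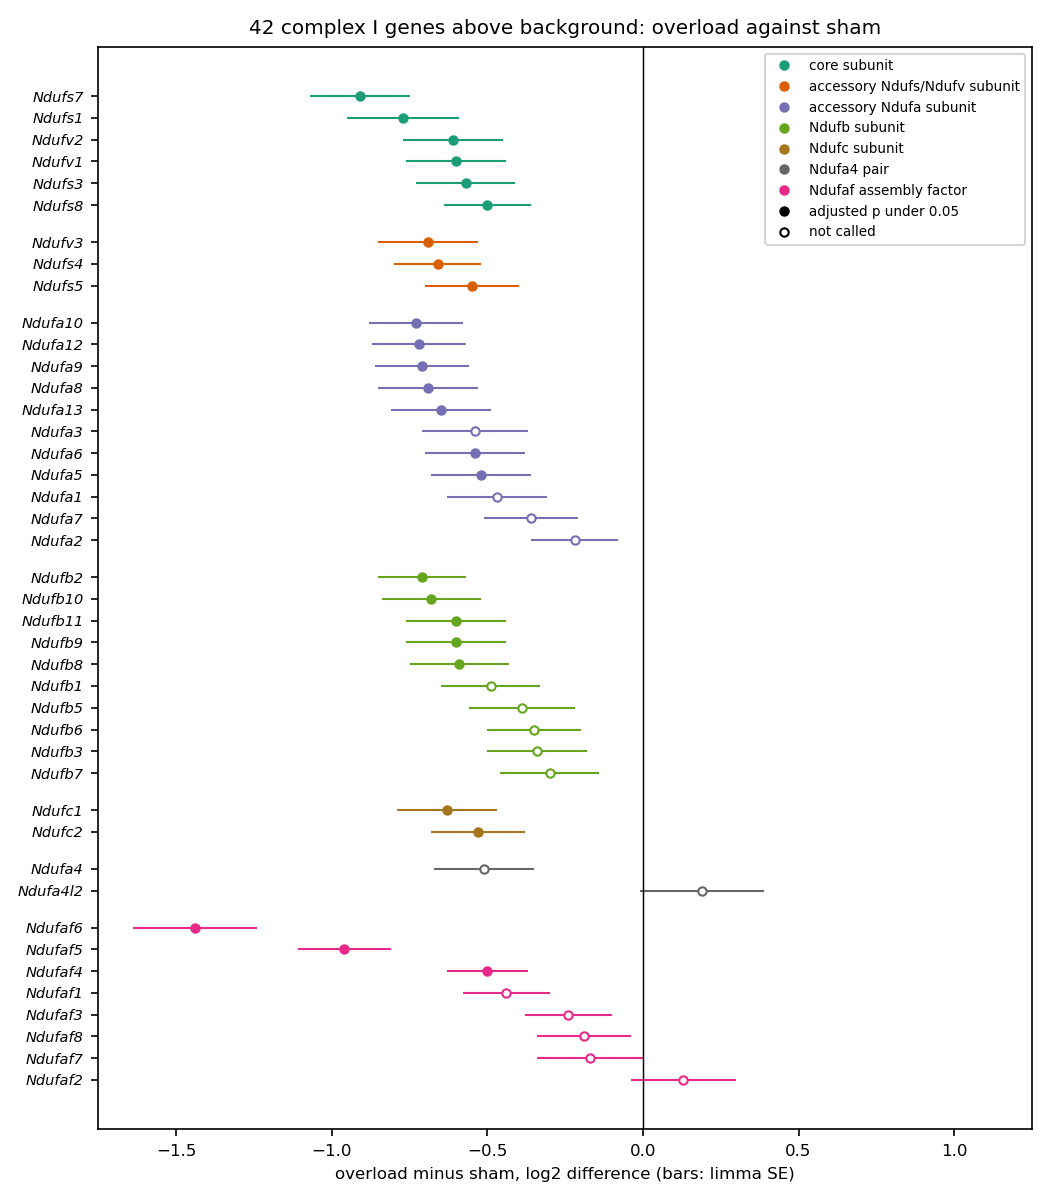
Overload minus sham difference on the log2 scale (horizontal axis, bars are limma standard errors) for the 42 complex I genes above background, grouped by role. Filled points are called at an adjusted p under 0.05. All 6 core subunits are filled and lie between -0.91 and -0.50, while the 8 assembly factors spread from -1.44 to 0.13.

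The core subunits fell together. All 6 that were measured were called lower, with a median difference of -0.61. Ndufs7, which carries the last iron-sulphur cluster before ubiquinone, was at 13.17, 12.83 and 13.13 on tamoxifen overload arrays and at 13.42 and 13.29 on vehicle overload arrays, against 14.01 on tamoxifen sham and 14.10 on vehicle sham. No overload array came near a sham array. The difference was -0.91 ± 0.16 (SE, adjusted p = 0.00586, limma), which leaves 53.2% of the sham signal.

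Ndufs1, the largest core subunit and the holder of several iron-sulphur clusters, was at 13.11, 12.63 and 12.87 on tamoxifen overload arrays and at 13.30 and 13.12 on vehicle overload arrays, against 13.78 on tamoxifen sham and 13.77 on vehicle sham. The groups did not overlap, and the difference was -0.77 ± 0.18 (adjusted p = 0.0186, limma). Ndufv1, which binds NADH and the flavin, was at 13.40, 13.05 and 13.21 on tamoxifen overload arrays and at 13.33 on both vehicle overload arrays, against 13.83 on tamoxifen sham and 13.92 on vehicle sham. Here the tamoxifen overload arrays lay on either side of the vehicle ones, and all 5 were below sham, by -0.60 ± 0.16 (adjusted p = 0.0321, limma). Ndufv2, its partner in the NADH module, differed by -0.61, and Ndufs3, of the module that meets ubiquinone, by -0.57. The smallest core difference was that of Ndufs8, another iron-sulphur subunit: 13.38, 13.34 and 13.38 on tamoxifen overload arrays and 13.61 and 13.59 on vehicle overload arrays, against 13.90 on tamoxifen sham and 14.05 on vehicle sham. It fell by 0.50 on the log2 scale (SE 0.14, adjusted p = 0.0384, limma).

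All 3 accessory Ndufs and Ndufv subunits fell as well. Ndufv3, attached to the NADH module, was at 13.10, 12.75 and 12.99 on tamoxifen overload arrays and at 13.20 and 13.22 on vehicle overload arrays, against 13.67 on tamoxifen sham and 13.84 on vehicle sham, and differed by -0.69 ± 0.16 (adjusted p = 0.0185, limma). Ndufs4, whose loss in mice gives a fatal brain disease, differed by -0.66 ± 0.14 (adjusted p = 0.0126, limma). Ndufs5, a small subunit on the intermembrane side, was at 12.71, 12.50 and 12.60 on tamoxifen overload arrays and at 13.05 and 12.87 on vehicle overload arrays, against 13.38 on tamoxifen sham and 13.22 on vehicle sham. It differed by -0.55 ± 0.15 (adjusted p = 0.0299, limma).

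Of the 11 accessory Ndufa subunits, 7 fell, and all 11 had every overload array below both sham arrays. The largest difference was that of Ndufa10, a subunit related to nucleoside kinases, which was at 13.13, 12.85 and 13.03 on tamoxifen overload arrays and at 13.43 and 13.28 on vehicle overload arrays, against 13.87 on both sham arrays. It differed by -0.73 ± 0.15 (adjusted p = 0.0123, limma), and its second probe set by -1.26. Ndufa12 (-0.72), Ndufa9 (-0.71), Ndufa8 (-0.69), Ndufa13 (-0.65), Ndufa6 (-0.54) and Ndufa5 (-0.52) were the other called members. Ndufa3 (-0.54), Ndufa1 (-0.47), Ndufa7 (-0.36) and Ndufa2 (-0.22) were not called. Ndufa2, a subunit of the NADH module, was at 13.35, 13.19 and 13.26 on tamoxifen overload arrays and at 13.55 and 13.57 on vehicle overload arrays, against 13.59 on tamoxifen sham and 13.70 on vehicle sham. Its vehicle overload arrays were thus close to sham (SE 0.14, adjusted p = 0.323, limma).

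The Ndufb subunits belong to the membrane arm, and 5 of 11 fell. Ndufb2 was at 12.86, 12.65 and 12.92 on tamoxifen overload arrays and at 13.21 and 13.07 on vehicle overload arrays, against 13.63 on tamoxifen sham and 13.61 on vehicle sham, a difference of -0.71 ± 0.14 (adjusted p = 0.0104, limma). Ndufb10 (-0.68), Ndufb11 (-0.60), Ndufb9 (-0.60) and Ndufb8 (-0.59) were called as well. Ndufb1 (-0.49), Ndufb5 (-0.39), Ndufb6 (-0.35), Ndufb3 (-0.34) and Ndufb7 (-0.30) were not.
Ndufb7 was the only complex I subunit measured, the Ndufa4 pair aside, with an overload array above a sham array: 13.31, 13.00 and 13.30 on tamoxifen overload arrays and 13.64 and 13.48 on vehicle overload arrays, against 13.55 on tamoxifen sham and 13.67 on vehicle sham (SE 0.16, adjusted p = 0.228, limma). Ndufb4 was dim, at 4.70, 3.47 and 4.69 on tamoxifen overload arrays and at 5.09 and 5.26 on vehicle overload arrays, against 6.21 on tamoxifen sham and 5.91 on vehicle sham. All 5 overload arrays were below background, so its mean signal was at least 1.22-fold lower in overload, with an adjusted p of 0.129 (limma) and measured means of 4.64 in overload and 6.06 in sham.

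Both Ndufc subunits, also of the membrane arm, fell. Ndufc1 was at 13.99, 13.74 and 13.92 on tamoxifen overload arrays and at 14.14 and 14.21 on vehicle overload arrays, against 14.55 on tamoxifen sham and 14.76 on vehicle sham (difference -0.63 ± 0.16, adjusted p = 0.0284, limma). Ndufc2 was at 13.51, 13.33 and 13.48 on tamoxifen overload arrays and at 13.52 and 13.64 on vehicle overload arrays, against 14.04 on tamoxifen sham and 14.06 on vehicle sham (difference -0.53 ± 0.15, adjusted p = 0.0393, limma). The groups did not overlap for either gene.

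Ndufa4 and Ndufa4l2 match the symbol rule by name only. Ndufa4 is now placed in complex IV, and Ndufa4l2 is its paralogue, known as a gene induced by low oxygen. Ndufa4 was at 13.99, 13.71 and 13.86 on tamoxifen overload arrays and at 14.08 and 14.13 on vehicle overload arrays, against 14.42 on tamoxifen sham and 14.57 on vehicle sham. It resembled the complex I subunits in size, with a difference of -0.51 ± 0.16, and was not called (adjusted p = 0.0589, limma). Ndufa4l2 was at 9.57, 9.72 and 9.65 on tamoxifen overload arrays and at 9.47 and 8.79 on vehicle overload arrays, against 9.21 on tamoxifen sham and 8.95 on vehicle sham. Its difference was 0.19 ± 0.20 (adjusted p = 0.558, limma), and the vehicle male array was its lowest of all. Without this pair the 33 remaining subunits had a median difference of -0.60, and all 33 were negative.

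**Figure D2:**
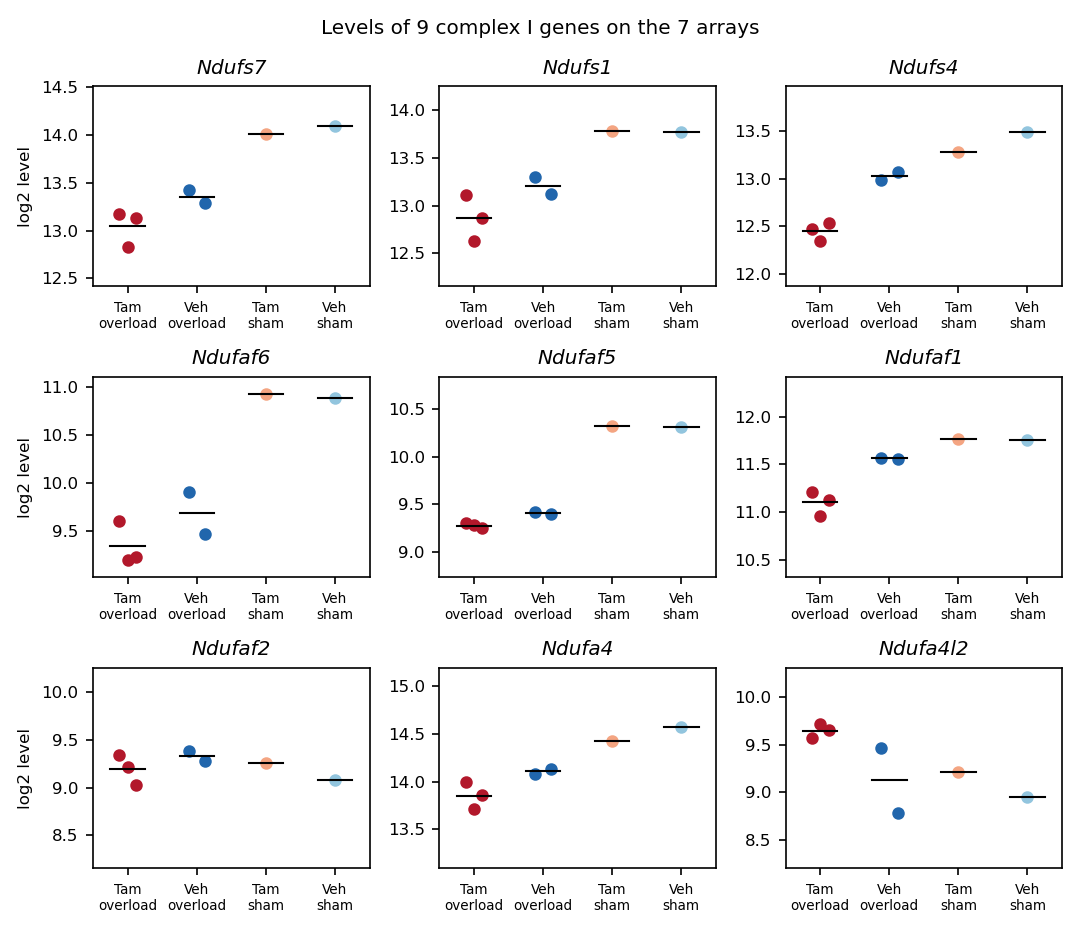
Log2 levels (vertical axis, the same span of 2.1 units in each panel) of 9 complex I genes on the 7 arrays by group, with points for arrays and lines for group means. Ndufs7, Ndufs1, Ndufaf6 and Ndufaf5 are lower on every overload array than on either sham array, whereas Ndufaf2 and Ndufa4l2 overlap.

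The assembly factors varied more from gene to gene than the subunits. The SD of their differences over genes was 0.50, against 0.25 for subunits. Assembly factors were also dimmer, with median levels of 9.51 to 10.62 per array against 13.07 to 13.98 for subunits. The part of this in the spread was not tested. They held the 2 largest falls of any complex I gene above background as well as genes whose arrays overlapped sham. Ndufaf6, a protein of the squalene synthase family that in human cells is needed to make the mitochondrially encoded ND1 subunit, was at 9.60, 9.19 and 9.22 on tamoxifen overload arrays and at 9.90 and 9.46 on vehicle overload arrays. It was at 10.93 on tamoxifen sham and 10.89 on vehicle sham, so no overload array was near sham. The difference was -1.44 ± 0.20 (adjusted p = 0.00221, limma), or 36.9% of the sham signal. Its call held under 17 of 18 alternatives, where the difference ran from -1.80 to -1.07, and not without an intensity trend.

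Ndufaf5, which in human cells hydroxylates the core subunit NDUFS7, was at 9.30, 9.28 and 9.25 on tamoxifen overload arrays and at 9.42 and 9.40 on vehicle overload arrays, against 10.32 on tamoxifen sham and 10.31 on vehicle sham. The overload arrays of this gene differed little among themselves. Its difference was -0.96 ± 0.15 (adjusted p = 0.00308, limma), which leaves 51.2% of the sham signal. Ndufaf8, the partner that holds Ndufaf5 in human cells, was at 10.89, 10.62 and 10.84 on tamoxifen overload arrays and at 10.84 and 11.01 on vehicle overload arrays, against 10.93 on tamoxifen sham and 11.17 on vehicle sham. The groups overlapped, and its difference of -0.19 ± 0.15 was not called (adjusted p = 0.432, limma).

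Ndufaf3 and Ndufaf4 bind each other and help to build the module that meets ubiquinone. Ndufaf4 was at 10.89, 10.69 and 10.72 on tamoxifen overload arrays and at 11.14 and 11.20 on vehicle overload arrays, against 11.46 on tamoxifen sham and 11.54 on vehicle sham, a difference of -0.50 ± 0.13 (adjusted p = 0.0313, limma). Its second probe set gave -1.11. Ndufaf3 was at 9.89, 9.74 and 9.87 on tamoxifen overload arrays and at 10.06 and 10.14 on vehicle overload arrays, against 10.19 on tamoxifen sham and 10.22 on vehicle sham. Its difference of -0.24 ± 0.14 was not called (adjusted p = 0.288, limma), although no overload array reached the sham arrays.

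Ndufaf1, of the assembly complex that builds part of the membrane arm, was at 11.21, 10.96 and 11.13 on tamoxifen overload arrays and at 11.57 and 11.56 on vehicle overload arrays, against 11.77 on tamoxifen sham and 11.75 on vehicle sham. The tamoxifen overload arrays stood apart from the rest, and the averaged difference of -0.44 ± 0.14 missed the threshold (adjusted p = 0.0578, limma). Ndufaf7, a methyltransferase, was at 9.11, 8.87 and 8.95 on tamoxifen overload arrays and at 9.03 and 9.19 on vehicle overload arrays, against 9.18 on tamoxifen sham and 9.33 on vehicle sham (difference -0.17 ± 0.17, adjusted p = 0.538, limma). Ndufaf2, a paralogue of Ndufa12 that acts late in assembly, was at 9.34, 9.22 and 9.03 on tamoxifen overload arrays and at 9.38 and 9.28 on vehicle overload arrays, against 9.26 on tamoxifen sham and 9.08 on vehicle sham. Its overload and sham arrays were mixed in order (difference 0.13 ± 0.17, adjusted p = 0.643, limma), while Ndufa12 fell.

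**Figure D3:**
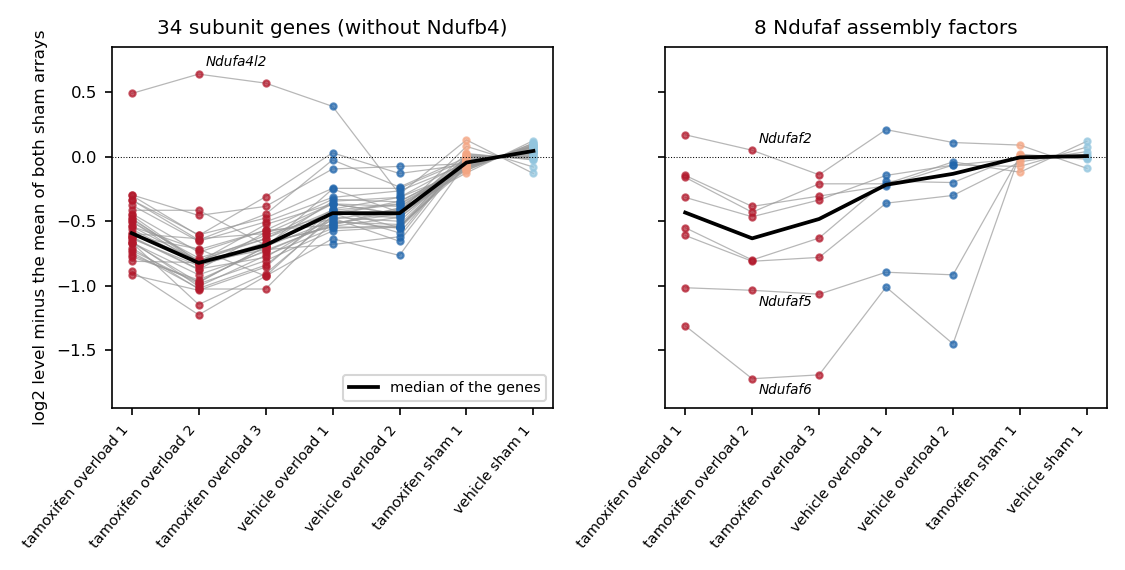
Log2 level minus the mean of both sham arrays (vertical axis) on each array, for 34 subunit genes at left and 8 assembly factors at right. Thin lines join the values of 1 gene, and the thick line is the median over genes. Subunits form a narrow band whose median is lowest, at -0.82, on tamoxifen overload array 2, with Ndufa4l2 outside it, and assembly factors fan out.

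Array by array, the median subunit stood at -0.59, -0.82 and -0.69 relative to the sham mean on tamoxifen overload arrays 1, 2 and 3, and at -0.44 and -0.45 on the vehicle overload female and male arrays. The sham arrays themselves were at -0.04 with tamoxifen and 0.04 with vehicle. Assembly factors had medians of -0.43, -0.63 and -0.49 on the tamoxifen overload arrays and of -0.22 and -0.13 on the vehicle overload arrays. Tamoxifen overload array 2 was the lowest of the 7 for 31 of the 35 subunits. That array also had the highest median intensity over all probe sets and the highest ratios of 3′ to 5′ signal for Gapdh (0.91) and actin (1.20), and the part of these in its low levels was not tested. Without it, 28 of the 43 genes were called lower, against 7.43% of all genes. The median subunit difference between overload and sham was then -0.51, against -0.59 with all arrays. The median range between replicate arrays was 0.27 for subunits over the 3 tamoxifen overload arrays and 0.06 over the 2 vehicle overload arrays.

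Genes of the muscle fibre and of other cells moved alongside. Of 30 adult muscle fibre markers 28 had a negative overload difference and 5 were called lower, with a median difference of -0.34. Their summed intensity was 656510 to 795480 on tamoxifen overload arrays and 839789 to 841299 on vehicle overload arrays, against 962959 to 1028107 on sham arrays. Of 20 macrophage markers 19 were called higher, with a median difference of 2.50 and summed intensities of 40466 to 67289 on overload arrays, against 8241 to 14338 on sham arrays. Of 16 fibroblast markers 13 were called higher and 1 lower, with a median of 1.91 and sums of 181471 to 220437 on overload arrays, against 85281 to 100351 on sham arrays. Of 7 adipocyte markers 5 were called lower, with a median of -1.16 and sums of 10069 to 16543 on overload arrays, against 14143 to 16725 on sham arrays. Of 12 satellite cell and myoblast markers 6 were called higher, with a median of 1.17 and sums of 21663 to 33556 on overload arrays, against 21437 to 23951 on sham arrays. The part of these other cells in the complex I result was not tested. In whole muscle, fewer fibres in the RNA and less RNA per fibre cannot be told apart.

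Setting the arrays to equal fibre marker levels changed the size of the result. The mean level of the 35 subunits, the dim Ndufb4 included, was compared with the mean fibre marker level. The subunit minus marker value was -1.64, -1.60 and -1.64 on tamoxifen overload arrays and -1.56 and -1.57 on vehicle overload arrays. It was -1.38 on tamoxifen sham and -1.40 on vehicle sham. After this centring the subunits had a median difference of -0.23 and the assembly factors one of 0.03, while that of all genes was 0.43, and 33 of 43 genes were still negative. It left 6 calls, with 2.78% of all genes called lower: Ndufs7, Ndufs1, Ndufa10, Ndufa9, Ndufb2 and Ndufaf6. These 6 were called under all 4 scalings tried. The fibre markers were brighter than the subunits, at mean levels of 14.30 to 14.97 per array against subunit medians of 13.07 to 13.98. The part of this in the centred differences was not tested. Quantile normalization gave 10 calls, with 7.18% of all genes called lower and a median over all genes of -0.06. Centring each array on its median gave 35, with 19.0% of all genes called lower and a median of -0.30. Median centring also turned the split of calls over all genes to 3455 lower and 1626 higher, against 1485 lower and 2678 higher as deposited, and turned Ndufaf2 and Ndufa4l2 negative.

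**Figure D4:**
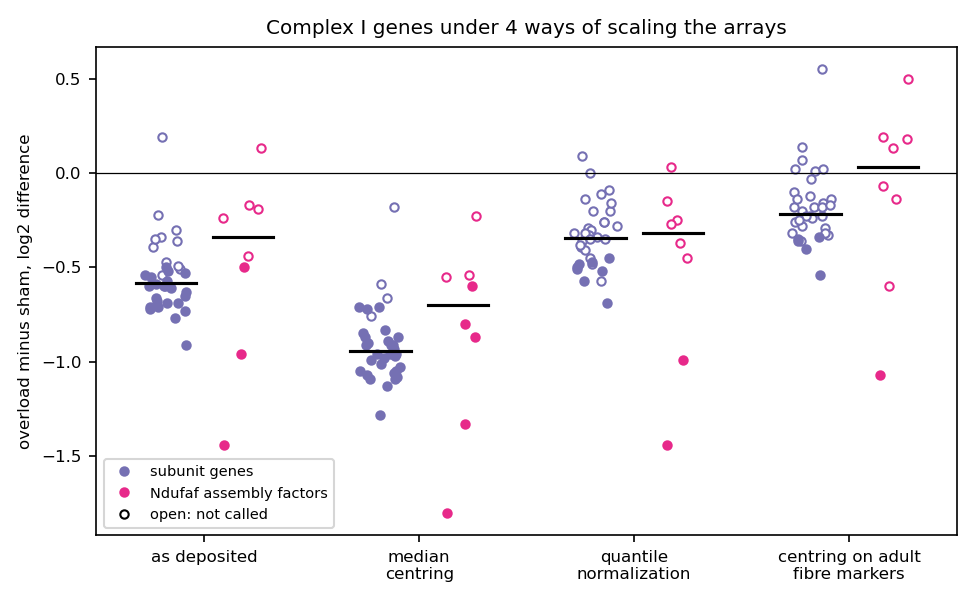
Overload minus sham difference on the log2 scale (vertical axis) of 34 subunits and 8 assembly factors above background, under 4 scalings of the arrays. Bars are medians over genes, filled points are called, and subunits move toward 0 when arrays are centred on adult fibre markers.

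Each gene, member or not, was read from its brightest probe set, and most subunits were bright. A level above 12 was reached by 32 of the 43 genes, all subunits. Among the 1009 other genes with a mean level above 12, a cutoff set after the values were seen, the median overload difference was -0.24 and 27.6% were called lower. The median subunit difference of -0.59 was further from 0 than that of these bright genes. The part of brightness in the result was not tested.

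The other probe sets of the same genes offer a second reading of the same RNA. There were 40 of them for 21 genes, and 35 of the 38 above background had the sign of the reported probe set, with a median of -0.59. Some gave larger differences: -2.00 for Ndufs4 and -1.26 for Ndufs8. Of the 3 above background that went the other way, a dim probe set of Ndufa12 was at 0.74 and was not called.

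Assembly factors named otherwise came from a separate list of 12 genes, of which 11 were measured and 5 fell, with a median of -0.58. Ecsit (-0.88, adjusted p = 0.0174) and Tmem126b (-0.82, adjusted p = 0.0187) work with Ndufaf1 in the same assembly complex (limma). Tmem242 (-0.83) and Tmem70 (-0.64), also called, are known for assembly of the ATP synthase as well. Ndufab1, the acyl carrier protein that is a further subunit of complex I, differed by -0.48 and was not called (adjusted p = 0.0687, limma).

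Of 15 regulators of mitochondrial biogenesis, 4 fell, with a median of -0.35. Perm1, a muscle regulator of oxidative genes, was at 10.67, 10.12 and 10.46 on tamoxifen overload arrays and at 11.09 and 10.24 on vehicle overload arrays, against 12.74 on tamoxifen sham and 12.63 on vehicle sham. That difference, -2.31 ± 0.23 (adjusted p = 0.000529, limma), was larger than any of the complex I genes. Ppargc1a, the coactivator PGC-1 alpha, differed by -1.42 ± 0.17 (adjusted p = 0.00121, limma). Esrra, the receptor ERR alpha, differed by -1.18 and Tfb2m, a mitochondrial transcription factor, by -0.68, both called.

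Genes of the other respiratory complexes were mostly negative too. All 4 complex II genes fell, with a median of -0.66. In complex III, 7 of 9 fell (median -0.62), and in complex V, the ATP synthase, 6 of 15 (median -0.49). Complex IV had 4 falls and 2 rises among 12 genes, with a median of -0.50. No difference between complexes was tested.

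Within vehicle mice, labelled as having satellite cells, 2 of the 43 genes fell with overload, Ndufaf5 (-0.89 ± 0.21, adjusted p = 0.0357, limma) and Ndufaf6 (-1.25 ± 0.28, adjusted p = 0.0343, limma), against 2.44% of all genes called lower. No subunit was called, though 34 of 35 were negative, with a median of -0.50. Assembly factors had a median of -0.21. This comparison sets 2 arrays against 1, and the lone sham array is taken to vary like the other groups. The count was 1 without either female array, 0 without the vehicle male array, and 5 and 4 without tamoxifen overload arrays 1 and 2, and in these fits 0.308% to 4.45% of all genes were called lower.

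Within tamoxifen mice, labelled as lacking satellite cells, 15 of the 43 genes fell with overload, against 4.9% of all genes. They were 11 subunits and 4 assembly factors, and 14 of the 15 are also among the 26 called with both treatments averaged. The subunits were Ndufs1, Ndufs4, Ndufs5, Ndufs7, Ndufa8, Ndufa9, Ndufa10, Ndufa12, Ndufa13, Ndufb2 and Ndufb10. Ndufaf1 (-0.67 ± 0.18, adjusted p = 0.0415, limma) was called here along with Ndufaf4 (-0.67), Ndufaf5 (-1.03) and Ndufaf6 (-1.62). The median was -0.64 for subunits and -0.52 for assembly factors. This comparison sets 3 arrays against 1 sham array, whose spread is taken from the other groups. The count was 2 without either female array or without the vehicle overload male array, where 3.24% to 3.37% of all genes were called lower, so that the members were near the share over all genes. It was 27 without tamoxifen overload array 1, where 7.32% of all genes were.

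**Figure D5:**
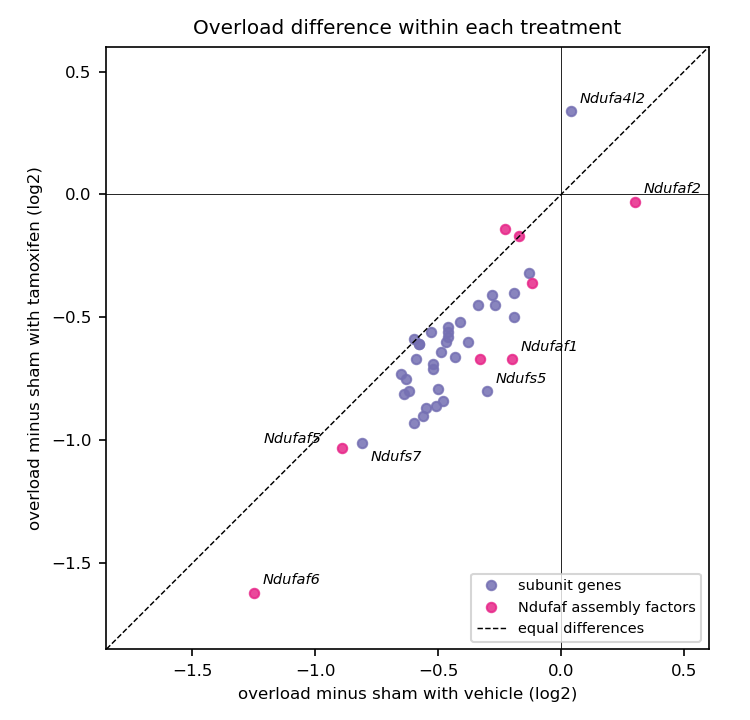
Overload minus sham difference with tamoxifen (vertical axis) against that with vehicle (horizontal axis), both on the log2 scale, for 42 complex I genes above background. The dashed line marks equal differences. Most points lie below it, Ndufaf6 is lowest at -1.62 and -1.25, and no distance from the line was called.

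The satellite cell question of the series title is whether these responses differ between tamoxifen and vehicle. In overload, 0 of the 43 genes were called between tamoxifen and vehicle, against 0.0% of all genes, and 7 were under an unadjusted p of 0.05 (limma), as were 10.6% of all genes. The members' differences leaned one way. For 42 of the 43 genes the tamoxifen mean was lower, with a median of -0.26 for subunits and -0.21 for assembly factors, beside 0.03 over all genes. All 3 tamoxifen arrays were below both vehicle arrays for 37 genes, which 12.6% of all genes showed. The fibre markers leaned likewise, all 30 negative with a median of -0.20, and macrophage markers had a median of 0.52. Of the 1009 other genes above a level of 12, 786 were negative, with a median of -0.16. Every measured gene of complexes II, III and V was negative, with medians of -0.23, -0.26 and -0.23. In complex IV 10 of 12 were, with a median of -0.20. With arrays centred on fibre markers the subunit median was -0.06, and that of all genes 0.23.

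Ndufs4 had the smallest p between tamoxifen and vehicle. It was at 12.47, 12.35 and 12.53 on tamoxifen overload arrays and at 12.98 and 13.07 on vehicle overload arrays, against 13.28 on tamoxifen sham and 13.49 on vehicle sham. The 3 groups of levels did not overlap. The difference in overload was -0.57 ± 0.14 (unadjusted p = 0.00378, adjusted p = 0.378, limma). Ndufaf1 (-0.46), Ndufaf4 (-0.42), Ndufb10 (-0.42), Ndufb1 (-0.39) and Ndufs5 (-0.34) were the other negative differences under an unadjusted p of 0.05. Ndufa4l2 was the 1 positive gene (0.57 ± 0.20, adjusted p = 0.421, limma), and all its tamoxifen arrays were above both vehicle arrays. None of these passed the adjusted threshold.

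The difference between the overload effects themselves was not called for any complex I gene, 0.0% of all genes being called and 0 of the 43 under an unadjusted p of 0.05, against 5.61% of all genes (limma). The median was -0.17 for subunits and -0.29 for assembly factors. Ndufs5 had the smallest p, with an overload effect of -0.80 ± 0.19 with tamoxifen and of -0.30 ± 0.21 with vehicle. That difference was -0.50 ± 0.27 (adjusted p = 0.933, limma).

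The sham arrays, 1 for each treatment, were compared without a test. Tamoxifen minus vehicle in sham had a median of -0.08 over the 43 genes, and 32 were negative. Among all genes it was 0.03. The differences ran from -0.25 (Ndufb11) to 0.30 (Ndufb4, the dim gene).

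Sex was examined in overload alone, where both sexes were present. No complex I gene was called between female and male, against 0.0495% of all genes, and 0 of 43 were under an unadjusted p of 0.05, against 5.01% of all genes (limma). The median female minus male difference was 0.02. Ndufa4l2 had the smallest p, with a difference of 0.30 (adjusted p = 0.983, limma): its vehicle overload levels were 9.47 on the female array and 8.79 on the male array, and its tamoxifen overload levels 9.65 on the female array against 9.57 and 9.72 on the male arrays.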

How the data were processed

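The authors deposited 1 table of probe set intensities for the 7 arrays, with 45101 probe sets. Per the labels' protocols, total RNA was extracted with Trizol, and the design text gives 1 µg per array. Per the submitters' processing notes, Partek was among the tools. How probes were summarised is not stated in these sources. The deposited intensity values are linear, and each array had a mean of 500 after trimming 2% at each end.

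Values were analysed as log2(value + 1). Probe sets with a single symbol (34945, control probe sets left out) gave 18193 genes, each by its brightest probe set. Background was the 95th percentile of 77 sensory receptor genes. One limma fit (limma 3.58.1, R 4.3.3) on all genes, with a term per group and for sex and an intensity trend, gave two-sided tests with Benjamini-Hochberg adjustment. The 2 residual degrees of freedom were joined by 5.95 prior degrees. The code was tested on simulated data with 200 of 18193 genes changed. There 9.3% to 11% of overload calls were false, above the nominal threshold, so the calls may be less strict than their adjusted p states. Of 2-fold changes, 43.6% were found for overload and 44.5% for tamoxifen against vehicle, so a gene not called may still differ. Far more genes were called for overload in the real data, so these shares need not hold there. The arrays number 7, which limits precision.

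Named in full were the extremes of each role, Ndufs1, Ndufv1, Ndufa4, Ndufa4l2, the Ndufaf genes and the smallest p of each further test. The members and gene lists were chosen with earlier results of these data known. Alternatives covered scaling, pseudocount, filter, sex, variance model, probe set choice and leaving out arrays.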

Additional observations from a re-analysis of the deposited data

How the results depend on the processing

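The calls rest on 2 sham arrays, both male. Leaving out either female array amounts to a fit on the male arrays alone, so these alternatives are not separate checks. Percentages beside the counts are shares of all genes called lower in the same fit. Against 26 complex I genes called with treatments averaged (8.16%), 7 were called in male arrays alone (6.62%). The count was 10 after quantile normalization (7.18%), 6 with arrays centred on fibre markers (2.78%) and 17 with probe sets averaged by gene (5.69%). It was 0 without an intensity trend (0.0%) and 2 to 30 without 1 array (2.73% to 9.83%). Within vehicle (2 called, 2.44%) the count was 1 in male arrays alone (1.31%). It was 0 after quantile normalization (1.32%), fibre marker centring (1.01%) or no trend (0.0%), and 0 to 5 without 1 array (0.308% to 4.45%). Within tamoxifen (15 called, 4.9%) the count was 24 without the sex term (5.86%) or with genes above background alone (9.22%). It was 2 in male arrays alone (3.48%), near the share over all genes. It was 7 after quantile normalization (4.01%) or with mean probe sets (3.13%) and 3 with fibre marker centring (1.5%). Without a trend it was 0 (0.0%), and without 1 array 2 to 27 (3.24% to 7.32%). Dropping both the sex term and the trend, chosen after seeing the data, gave 7 averaged (4.11%), 0 within vehicle (0.242%) and 0 within tamoxifen (0.412%). At an unadjusted p under 0.05, limma without a trend gave 26 genes averaged, 2 within vehicle and 17 within tamoxifen. The shares of all genes under that p were 28.8%, 18.2% and 22.7%.

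Subunit medians under quantile normalization, median centring and fibre marker centring were -0.35, -0.96 and -0.23 averaged, -0.26, -0.86 and -0.19 within vehicle, and -0.39, -1.02 and -0.22 within tamoxifen. Assembly factor medians under median and fibre marker centring were -0.70 and 0.03 averaged, -0.58 and 0.09 within vehicle, and -0.89 and -0.09 within tamoxifen. After quantile normalization the averaged assembly factor median was -0.32, close to the -0.35 of subunits. For tamoxifen minus vehicle in overload, median and fibre marker centring gave -0.41 and -0.06 for subunits and -0.36 and -0.01 for assembly factors. Median centring gave -0.23 for subunits and -0.15 for assembly factors between the sham arrays. The assembly factor median for the difference of overload effects was -0.15 in male arrays alone and -0.33 to -0.15 without 1 array.

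Signs turned with fibre marker centring for Ndufa2 (0.14), Ndufa7 (0.01), Ndufaf3 (0.13), Ndufaf7 (0.19), Ndufaf8 (0.18), Ndufb3 (0.02), Ndufb6 (0.02) and Ndufb7 (0.07), with median centring for Ndufa4l2 (-0.18) and Ndufaf2 (-0.23), and with mean probe sets for Ndufb9 (0.19), where 1 of the averaged probe sets lies below background. The cause was not tested for the scalings. No paired analysis was possible because the labels name no pairs of arrays. Only the titles of the male tamoxifen overload arrays carry a number. Only Ndufb4 was limited by signal over background.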
